A study of Mus musculus with 2 samples.

Results

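The starts of protein-coding genes at which no accessible chromatin was called in mouse embryonic stem cells (mESCs) are described here. A start was taken as the 5′ end of a gene record of GENCODE vM21 on GRCm38 (mm10), and it was called peakless if no ATAC-seq peak overlapped the 2000 bp on either side of it. Genes on chromosomes 1 to 19 were considered, and genes with names that begin with Olfr, Vmn1r or Vmn2r, the bulk of the olfactory and vomeronasal receptors, were left out. Receptors of these families under other names, such as V1rd19, remained. Of 19350 starts considered, 4667 were peakless, which is 24.1%, and the other 14683 had a peak. This share is the readout by which the starts were chosen and is given as a description.

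The cells were EHMT2-dTAG mESCs, clones of the line KH2 (C57BL/6J x 129S1 F1, labelled as a BL6/129 hybrid) in which a sequence for FKBP12F36V, HA tags and an NLS-mCherry reporter was inserted at the stop codon of endogenous Ehmt2, so that the H3K9 methyltransferase EHMT2 can be degraded with dTAG-13. In this experiment the cells received only the vehicle DMSO for 24 h. ATAC-seq maps accessible DNA by the cuts of the transposase Tn5, and 2 clones were assayed with 50000 cells each. The authors called the deposited peaks on both clones merged, so the list carries no spread between replicates, no test between conditions can be made, and all values below are descriptions of 1 list.

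Peaks number 116782, and their median width is 589 bp and their median fold enrichment 3.98, where fold enrichment is the fragment pileup at the summit plus 1 over the local background plus 1. The peaks had at least 6 fragments at the summit and a median of 9, as calculated from the deposited fold enrichment and p-value. A peakless start is therefore a start at which no peak passed the q-value threshold of 0.05 at this depth, and it is not shown to be closed chromatin. If only peaks with a −log10 q-value of at least 10 were counted, 8847 starts (45.7%) would be peakless.

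In vertebrates, promoters fall broadly into those inside CpG islands, which are kept free of DNA methylation and are accessible in most cell types, and those poor in CpG, which are often used in 1 tissue and open only there. Many CpG-poor promoters carry a TATA box, which binds the TATA-binding protein shortly before the transcription start. mESCs stand for the early embryo, so genes of liver, skin, gland, placenta or blood are mostly silent in them.

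To show the CpG-poor extreme of the peakless starts, the stretch just before the start is given for 1 peakless gene of each of the 5 classes of functionally named genes with the most peakless starts, namely the gene with the motif TATAAA at 40 to 20 bp before the start that had the lowest CpG content of its class. These 5 stretches are not typical, since TATAAA lies there at only 6.32% of peakless starts. All are on GRCm38 and are written 5′ to 3′ on the strand of the gene, ending at the base before the start, with TATAAA and every CG in capitals. The genes are Defa23, an antimicrobial alpha-defensin of the gut (chr8:21054927-21055046, plus strand), Cyp2c55, a cytochrome P450 (chr19:39006899-39007018, plus strand), Scgb2b19, a secretoglobin (chr7:33280339-33280458, minus strand), Prss1, a trypsin of the pancreas (chr6:41458812-41458931, plus strand), and Krtap5-2, a keratin-associated protein of hair (chr7:142176006-142176125, minus strand).
Defa23: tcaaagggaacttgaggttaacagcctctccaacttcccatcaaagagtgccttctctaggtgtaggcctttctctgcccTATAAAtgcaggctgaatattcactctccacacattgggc
Cyp2c55: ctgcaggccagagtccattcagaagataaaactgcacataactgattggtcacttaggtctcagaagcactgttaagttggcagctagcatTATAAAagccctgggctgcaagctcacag
Scgb2b19: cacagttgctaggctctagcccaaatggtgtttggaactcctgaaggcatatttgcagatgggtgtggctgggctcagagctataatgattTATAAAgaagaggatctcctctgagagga
Prss1: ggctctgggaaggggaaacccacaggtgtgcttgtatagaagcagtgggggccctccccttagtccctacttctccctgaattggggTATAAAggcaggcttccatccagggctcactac
Krtap5-2: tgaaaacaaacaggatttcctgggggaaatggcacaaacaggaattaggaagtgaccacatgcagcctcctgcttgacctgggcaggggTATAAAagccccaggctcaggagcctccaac

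None of these 5 stretches of 120 bases holds a CG. The nearest peak lay 5101 bp from the start of Defa23, 24689 bp from Cyp2c55, 262909 bp from Scgb2b19, 3425 bp from Prss1 and 31072 bp from Krtap5-2.

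For contrast, the same stretch is given for 3 of the 10 peakless starts with the highest CpG content among those with a GC content of at least 55%, shown up to the nearest annotated exon where that is shorter. These 3 starts are not the 3 highest of the 10, and all 10 are named further below. Alyref, an mRNA export factor (chr11:120598366-120598420, minus strand), Stk11, the kinase LKB1 (chr10:80115683-80115802, plus strand), and Hbs1l, a translation factor of ribosome rescue (chr10:21295859-21295978, plus strand), are used in most cell types. Every CG is in capitals, and none of these holds TATAAA in that position.
Alyref: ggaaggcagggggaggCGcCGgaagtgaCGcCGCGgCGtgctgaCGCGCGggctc
Stk11: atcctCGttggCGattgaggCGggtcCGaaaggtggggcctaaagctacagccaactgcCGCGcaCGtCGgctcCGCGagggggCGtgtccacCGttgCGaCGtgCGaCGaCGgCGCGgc
Hbs1l: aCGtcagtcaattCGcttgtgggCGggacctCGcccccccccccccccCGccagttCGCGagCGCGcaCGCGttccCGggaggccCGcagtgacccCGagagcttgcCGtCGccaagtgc

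The stretch of Alyref holds 9 CG in 55 bases, that of Stk11 19 in 120 and that of Hbs1l 16 in 120. The nearest peak lay 48893 bp from the start of Alyref, 14117 bp from Stk11 and 41016 bp from Hbs1l, and no peak overlapped the windows of any annotated transcript start of these genes. Another annotated start lay much closer to a peak, at 3238 bp for Stk11 and 2465 bp for Hbs1l, not far beyond the limit of 2000 bp.

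CpG content was measured over 500 bp centred on the start as the observed number of CG over the number expected from the C and G content. This ratio had a median of 0.192 at peakless starts, with quartiles of 0.109 and 0.299, and of 0.749 at starts with a peak, with quartiles of 0.525 and 0.887. The upper quartile of the peakless starts thus lay below the lower quartile of the others. The median number of CG in the 500 bp was 5 at peakless starts and 35 at starts with a peak. A total of 122 peakless starts had none.

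The share of peakless starts went down along the CpG ratio. It was 80.5% of 1254 starts with a ratio under 0.1, 69.7% of 2065 starts from 0.1 to 0.2 and 58.3% of 1812 starts from 0.2 to 0.3. It was 39.7% from 0.3 to 0.4 and 19.1% from 0.4 to 0.5, on either side of the share over all starts. From a ratio of 0.7 upward it lay between 1.49% and 2.64%.

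**Figure D1:**
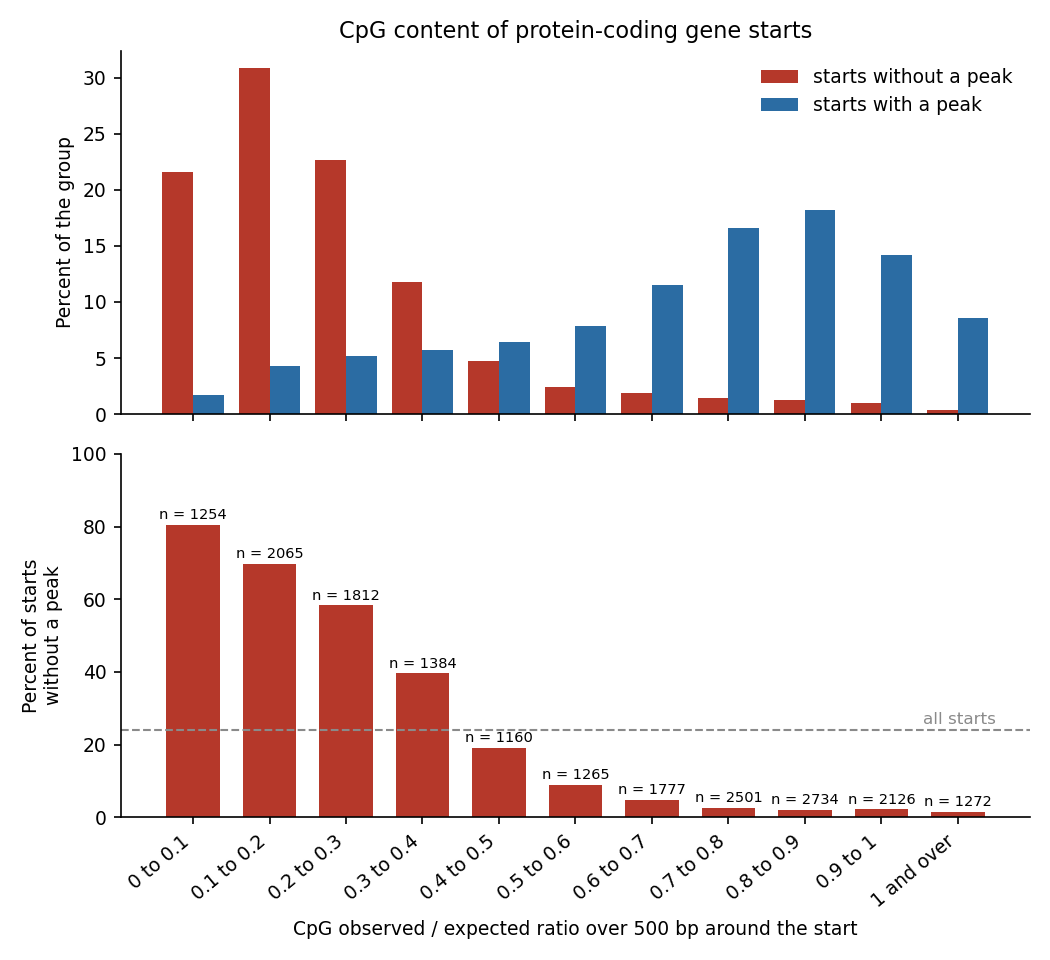
Bars give the CpG observed over expected ratio in 500 bp around protein-coding gene starts. The upper panel gives the percent of the 4667 starts without a peak and of the 14683 starts with a peak in each bin, and the lower panel the percent of starts in each bin that had no peak, with the number of starts above each bar and the share over all starts, 24.1%, as a dashed line. The share falls from 80.5% below a ratio of 0.1 to 1.49% at 1 and over.

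GC content followed the same order, with a median of 48.8% (quartiles 43.8% and 53.2%) at peakless starts and 61.6% (quartiles 55.4% and 67.4%) at starts with a peak. In the 100 kb around the start the medians lay closer together, at 43.5% and 45.3%. Starts were called CpG-rich with a GC content of at least 55% and a CpG ratio of at least 0.65. Of 8871 CpG-rich starts 2.01% were peakless, and of the 10479 others 42.8% were. Hence only 178 peakless starts, 3.81%, were CpG-rich, against 59.2% of the starts with a peak.

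Promoter motifs were counted by their letters alone. TATAAA on the gene strand at 40 to 20 bp before the start was found at 295 peakless starts (6.32%), at 181 starts with a peak (1.23%) and at 2.46% of all starts, so that 62.0% of the 476 starts with TATAAA were peakless. GGGCGG, the core of the GC box, within 150 bp before the start on either strand was found at 8.72% of peakless starts, 47.6% of starts with a peak and 38.2% of all starts. CCAAT on either strand of the same stretch was found at 25.0%, 27.0% and 26.5%, so this motif hardly separated the groups. GGGCGG itself contains a CG and therefore moves with the CpG ratio, and a match is not a binding site.

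The peakless genes were also shorter and simpler. Their median length was 10818 bp with 5 exons and 960 coding bases, against 23271 bp, 9 exons and 1359 coding bases for genes with a peak at the start. Genes of 1 exon made up 9.47% of the peakless genes and 3.73% of the others. In 60.3% of the peakless genes, no peak overlapped the gene body either.

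Genes were grouped by 60 lists of gene families taken from their names. These lists hold 1089 of the peakless starts (23.3%), against 11.4% of all starts. Gene models with a Gm, Rik or accession name hold a further 1061 (22.7%), against 9.53% of all starts. The remaining 2517 (53.9%) are on no list, against 79.1% of all starts. Of the 60 lists, 51 had a share of peakless starts above that over all starts and 9 a share below it. The lists were chosen with earlier results of these data known, so this tally describes only the lists chosen. Members of a family arose from shared ancestors and often lie side by side, so they are not independent.

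**Figure D2:**
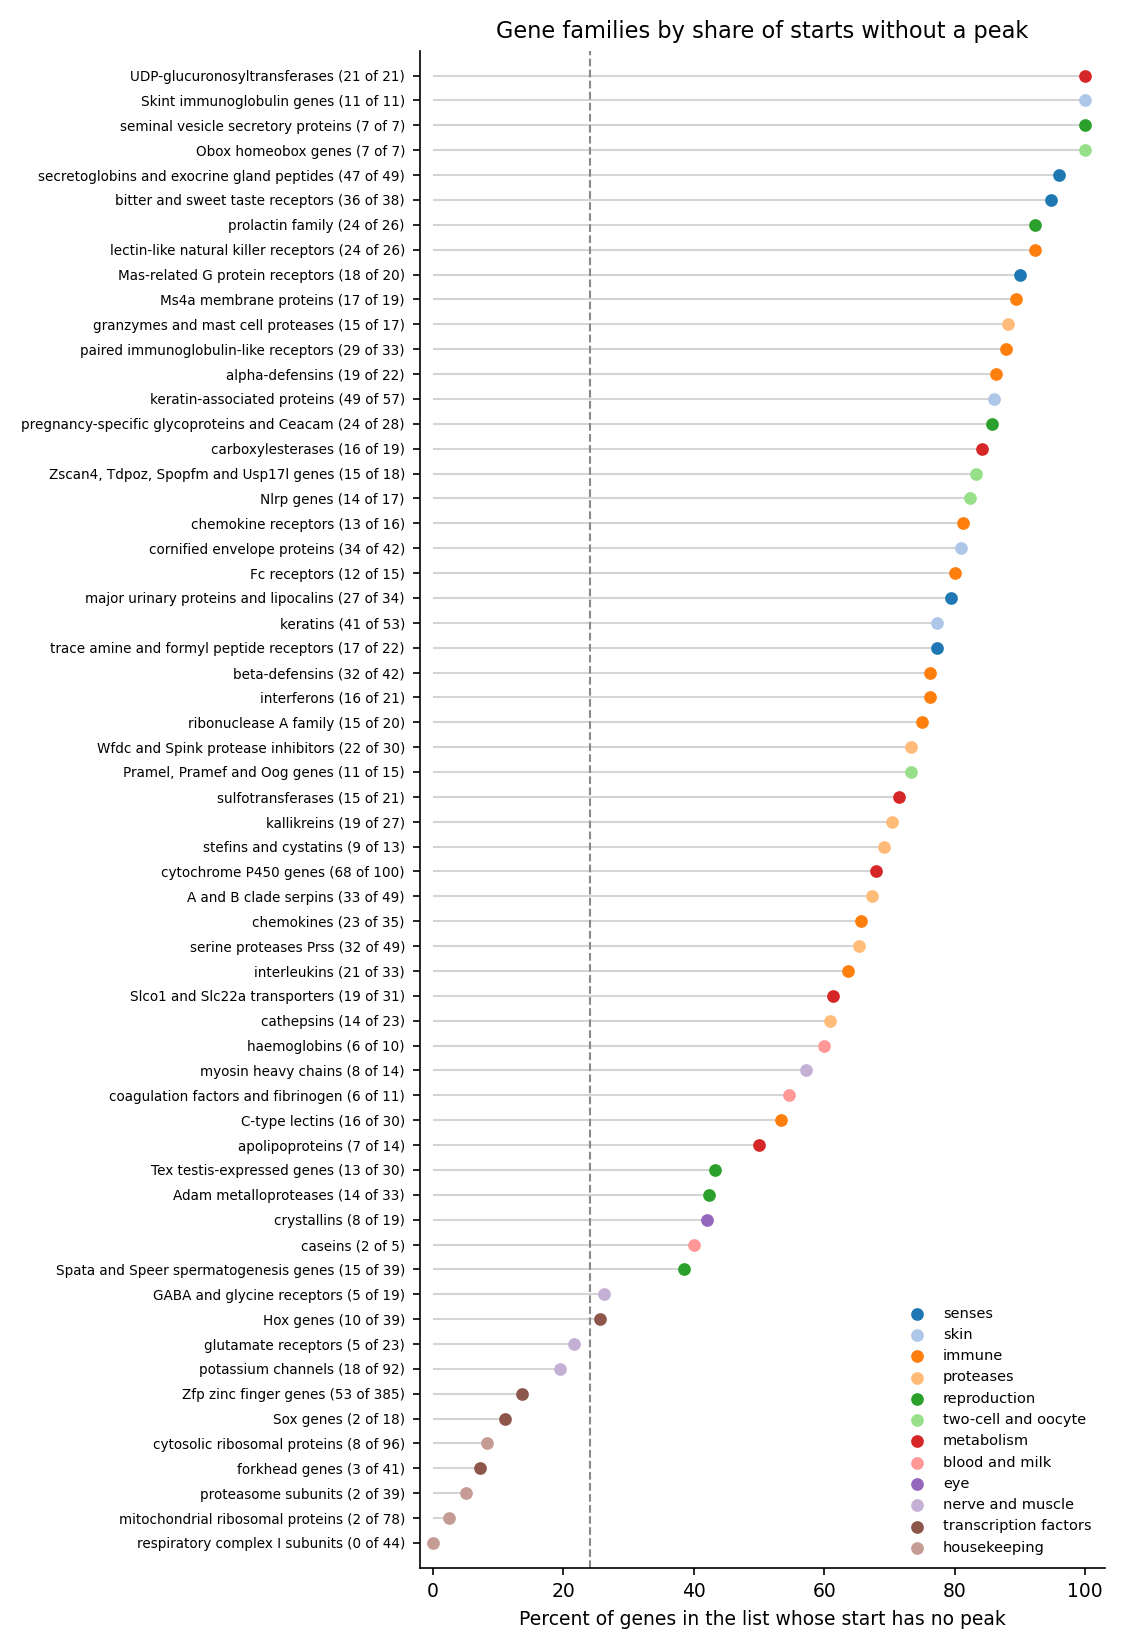
Each point is 1 of 60 gene family lists, coloured by class, at the percent of its genes whose start has no peak, with the numbers of genes beside its name. The dashed line is the share over all starts, 24.1%. The lists run from 100% for UDP-glucuronosyltransferases, Skint, Obox and Svs genes to 0% for subunits of respiratory complex I.

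Sensory and secreted signalling genes had the highest share of any class, with 145 of 163 starts peakless (89.0%). Among them, 36 of 38 taste receptors were peakless, from Tas2r120 with a peak at 2184 bp to Tas2r118 at 28448 bp. Of the secretoglobins and exocrine gland peptides, which carry odorants and pheromones in gland fluids, 47 of 49 were peakless. Scgb3a1 at 2036 bp was the nearest of them to a peak and Scgb1b17 at 446400 bp the farthest. The Mas-related receptors of itch and pain neurons had 18 of 20 peakless starts, and the major urinary proteins and lipocalins 27 of 34.

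In the skin class, 135 of 163 starts were peakless (82.8%), and it was the class richest in TATAAA, which preceded 41.5% of its peakless starts. Keratin-associated proteins, the matrix of hair, had 49 of 57 peakless starts, of which 29 with TATAAA. Keratins, the filament proteins of epithelia, had 41 of 53, and the cornified envelope proteins of the outer skin had 34 of 42. All 11 Skint genes, which shape T cells of the skin, were peakless. The keratin nearest to a peak was Krt10, at 2716 bp, and the farthest was Krt6b, at 91949 bp.

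Immune genes were peakless at 237 of 312 starts (76.0%). The lectin-like receptors of natural killer cells had 24 of 26, from Klre1 at 2142 bp to Klra3 at 64741 bp. The alpha-defensins had 19 of 22, with the lowest median CpG ratio of any list at 0.0343 and TATAAA before 11 of the 19. Interferons had 16 of 21, chemokines 23 of 35, chemokine receptors 13 of 16 and interleukins 21 of 33. C-type lectins were the immune list with the smallest share, 16 of 30.

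Genes of proteases and their inhibitors were peakless at 144 of 208 starts (69.2%). Granzymes and mast cell proteases, which are stored in granules of blood cells, had 15 of 17, and the Prss serine proteases, among them the trypsins, had 32 of 49. Metabolic genes followed with 146 of 206 (70.9%). All 21 UDP-glucuronosyltransferases, which conjugate bilirubin and drugs, were peakless, from Ugt2a3 at 2665 bp to Ugt1a8 at 52403 bp. Of the cytochrome P450 genes 68 of 100 were peakless, with Cyp17a1 of steroid synthesis just beyond the window at 2046 bp and Cyp2b13 at 87066 bp.

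Genes of reproduction were peakless at 97 of 163 starts (59.5%). Within this class the prolactin family, hormones of pituitary and placenta, had 24 of 26, and all 7 seminal vesicle secretory genes were peakless and at least 21249 bp from a peak. The Adam, Spata and Tex lists, which hold many testis genes, had between 38.5% and 43.3%.

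Genes of the 2-cell stage and the oocyte were peakless at 47 of 57 starts (82.5%). In mESC cultures, genes such as Zscan4 and Obox are on mainly in rare 2-cell-like cells (2CLCs). This does not extend to the Nlrp list, which was made by name and not by stage. All 7 Obox homeobox genes were peakless, with Obox2 at 285082 bp from a peak. The Zscan4, Tdpoz, Spopfm and Usp17l list had 15 of 18 and the Nlrp list 14 of 17. These peakless starts had a median of 29.0% of their 50-base words repeated elsewhere in the genome. Since the authors placed each read that matched several locations at 1 location with ties at random, copies of a repeated sequence share reads, and the part of this in the missing peaks was not tested.

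At the other end of the order, 12 of 257 housekeeping starts were peakless (4.67%). This class holds ribosomal proteins, proteasome subunits and subunits of respiratory complex I, and none of the 44 starts of complex I was peakless. Mrpl35 and Mrps10 of the mitochondrial ribosome had a peak at another transcript start, as did Psmb11, a proteasome subunit of the thymus. Rpl10-ps3, Rps27rt, Rpl9-ps1, Rpl36-ps4 and Rps12-ps3 carry names of pseudogenes or retrotransposed copies, Rpl39l and Rpl3l are tissue forms of common ribosomal proteins, and Rps19bp1 is named for binding a ribosomal protein. Psmc5, an ATPase of the proteasome, remained, with 38881 bp from its start to the nearest peak.

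Transcription factors were also rarely peakless, at 68 of 483 starts (14.1%). The Zfp zinc finger genes had 53 of 385, forkhead genes 3 of 41 and Sox genes 2 of 18. The Hox genes had 10 of 39, close to the share over all starts, and their peakless starts had a higher median CpG ratio, 0.642, than those of any other list. Peakless starts of the Zfp genes were far from peaks, with a median of 38259 bp, and had a median of 25.9% of repeated words. Of these starts 17 lie in 1 run of 21 genes on chromosome 4, from Zfp990 to Zfp984, with a median distance of 486744 bp. Channels and receptors of nerve and muscle reached 24.3% as a class (36 of 148), close to all starts, with 18 of 92 potassium channels but 8 of 14 myosin heavy chains.

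**Figure D3:**
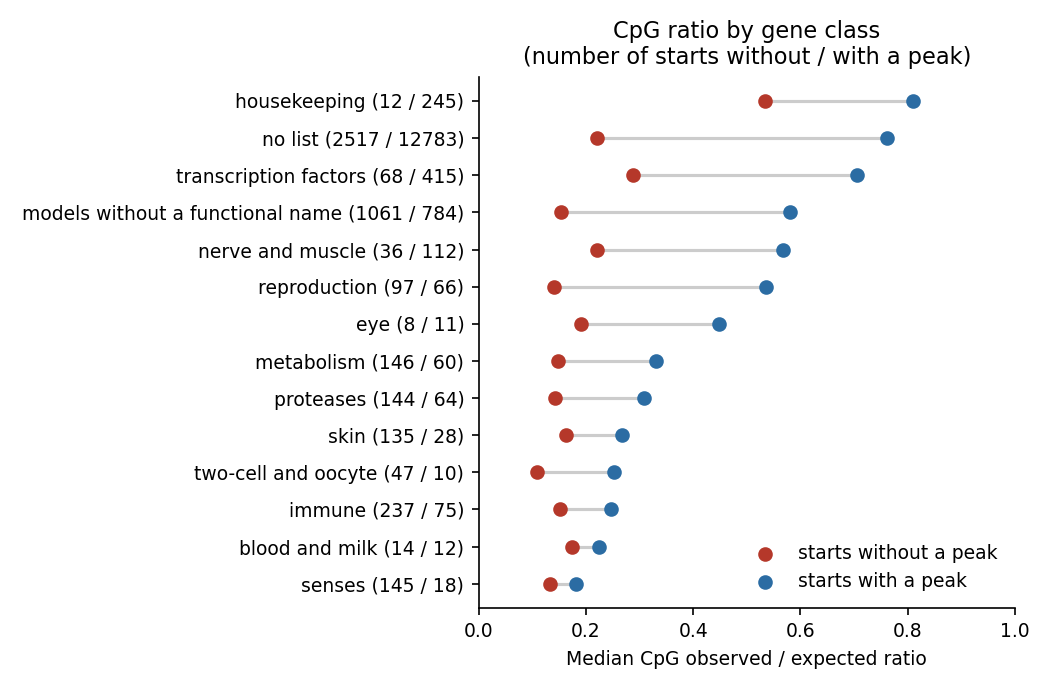
Points give the median CpG observed over expected ratio of starts without and with a peak for each gene class, with the numbers of starts in each group. In all 14 groups the starts without a peak had the lower median, and the distance between the points was shortest for sensory genes, 0.132 against 0.181. At the level of single lists, the order was the reverse in 8 of 55.

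Within classes the CpG ratio separated the starts unevenly. For sensory genes, the median was 0.132 at peakless starts and 0.181 at the 18 with a peak, and for immune genes it was 0.151 and 0.246. For reproduction the medians were 0.139 and 0.536, and for transcription factors 0.288 and 0.705. In classes of CpG-poor genes, the starts with a peak were hence CpG-poor as well. Of the 55 single lists with starts of both kinds, 47 had the lower median at peakless starts and 8 the higher one, among them taste receptors (0.187 peakless against 0.0993 with a peak), the prolactin family (0.185 against 0.114), cornified envelope proteins (0.0907 against 0.0527) and beta-defensins (0.120 against 0.0998).

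Among peakless genes on no list, names that begin with Slc, the solute carriers, were the most frequent with 63 of 333, followed by Tmem with 47 of 235, both below the share over all starts. Names that begin with Cd, the surface antigens of leukocytes, had 40 of 85 (47.1%), so that 45 had a peak. The T cell receptor subunits Cd3d, Cd3e and Cd3g were peakless at 14601, 30716 and 13246 bp from a peak. The coreceptors Cd4 and Cd8a lay at 15213 and 50395 bp and the B cell gene Cd79a at 6472 bp. Other lymphocyte genes were not peakless, with a peak overlapping the start of Cd8b1, the partner of Cd8a, and peaks at 200 bp from Cd79b, the partner of Cd79a, at 1662 bp from Cd5 and at 1196 bp from Cd6. These names were chosen after their values had been seen.

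Genes of known use served as a check of the cells. Of 15 pluripotency genes, among them Pou5f1, Sox2 and Nanog, only Esrrb was peakless, at 4459 bp, and another of its transcript starts lay inside a peak. None of 8 housekeeping genes was peakless. Of 25 genes of differentiated tissues 17 were peakless: Afp, Alb, Amy2a5, Cpa1, Csn2, Ghrh, Hba-a1, Ins1, Ins2, Krt10, Krt5, Myh6, Prm1, Tg, Ttr, Uox and Zp3. Ins1 and Ins2, the insulin genes, lay 10608 and 22292 bp from a peak and Alb, serum albumin, 13140 bp. Of 19 genes of the 2-cell stage 17 were peakless, the exceptions being Tdpoz4 and Tcstv1, whose nearest peaks lay at 781 and 1829 bp. Zscan4c was 7766 bp and Zscan4f 66168 bp from a peak.

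The start of the gene record is not always the start in use. In 807 peakless genes (17.3%), a peak overlapped the window of another annotated transcript start of the same gene. Trim28, a corepressor of transposons, had its record start 6513 bp from a peak while another of its starts lay inside a peak, and the same was true of Cd47 and of H3f3b, a gene of histone H3.3. These 3 were chosen after their values had been seen. If every transcript start had to be without a peak, 3860 genes (19.9%) would be peakless.

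The nearest peak lay a median of 9832 bp from a peakless start, with quartiles of 4647 and 21397 bp. It lay within 5 kb for 1277 starts, beyond 10 kb for 2307, beyond 50 kb for 478, beyond 100 kb for 270 and beyond 1 Mb for 19. It lay before the start in 49.8% of cases, so neither side prevailed. Its fold enrichment had a median of 4.16, against 8.15 for the nearest peak of starts with a peak, where that is the peak at the start.

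Starts next to the limit of 2000 bp showed little difference in distance. The nearest inside were Dmpk, a kinase of muscle, at 2001 bp, Gm6408 at 2004 bp and Sema4a at 2015 bp. Among the nearest outside were Igll1 at 1999 bp and Pop5 at 1998 bp. Another start of Dmpk lay 45 bp from a peak, and another start of Sema4a lay inside one.

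The 5 starts farthest from any peak were those of the gene models Gm5891 (1357983 bp), Gm2888 (1303307 bp), Gm6176 (1300637 bp), Gm2897 (1284024 bp) and Gm5725 (1280959 bp). Gm5891, Gm6176 and Gm5725 lie on chromosome 7 and Gm2888 and Gm2897 on chromosome 14. All of the 50-base words around the starts of Gm5891, Gm6176 and Gm5725 were found more than once in the genome, as were 88.9% of those of Gm2888 and 41.9% of those of Gm2897. Over all peakless starts, 662 (14.2%) had more than 50% of their words repeated, against 169 (1.15%) of the starts with a peak, while 65.6% of the peakless starts had no repeated word at all. Among peakless starts with under 10% of repeated words the median CpG ratio was 0.207, close to the 0.192 over all of them.

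Peakless starts were grouped along the chromosomes. They formed 2456 runs of neighbours among the genes considered, of which 1708 were of 1 gene. Genes left out by name were passed over, so Olfr, Vmn1r or Vmn2r genes may lie inside a run. With those genes kept, the runs of 10 or more genes numbered 91. Without them, 49 such runs held 799 of the peakless starts (17.1%). Of these 799, 338 were gene models without a functional name. Chromosome 14 carried 9 of the 49 runs, with 201 starts, and had the highest share of peakless starts, 40.7% (350 of 860). The other chromosomes lay between 16.8% on chromosome 12 and 27.1% on chromosome 7. Chromosome 8, which had 69.7 peaks per Mb against 37.3 to 50.6 on the other autosomes, had 17.6%.

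The longest run, of 51 genes from Sftpa1 to Gm10375 (chr14:41131782-43608013), held 48 gene models, and the median distance to a peak was 268368 bp. The second, of 41 genes from Igsf23 to V1rd19 (chr7:19950756-24001691), held 35 gene models and 3 Nlrp genes. The next were 33 gene models from Gm3159 to Gm3424 (chr14:4397526-5830329) and 31 genes from Gm14444 to Gm14401 (chr2:175010241-177074320), of which 24 Gm models and 6 Zfp genes. The median share of repeated words was 88.9% in the longest of these 4 runs and 100% in the other 3.

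The fifth run, of 26 genes from Scgb1b3 to Scgb1b30 (chr7:31375592-34095431), was made of secretoglobins alone. Further runs held 1 family in the main, such as the natural killer receptors from Klre1 to Klra2 on chromosome 6 with 19 of 21 genes, the prolactin genes from Prl3d1 to Prl7a1 on chromosome 13 with 15 of 15, the Mas-related receptors from Mrgpra6 to Mrgprb3 on chromosome 7 with 15 of 15, the proteases from Cma1 to Gzmb on chromosome 14 with 14 of 15, and the P450 genes from Cyp2c55 to Cyp2c70 on chromosome 19 with 14 of 14. Repeated words were not common to all of these, with medians of 0% in the prolactin and Mas-related runs and 61.2% in the secretoglobin run. Median CpG ratios in these 6 runs lay between 0.0755 and 0.228.

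Against this picture stood the 178 CpG-rich peakless starts, of which Alyref, Stk11 and Hbs1l were shown above. The 10 with the highest ratio were Taf7 (1.26), Hist2h2aa2 (1.26), Alyref (1.26), Hist2h2aa1 (1.22), Anapc11 (1.19), Stk11 (1.15), Arhgdia (1.12), Hbs1l (1.10), Mrs2 (1.09) and Ankrd13c (1.09), among them a subunit of TFIID (Taf7), a subunit of the anaphase-promoting complex (Anapc11) and genes of histone H2A. Repeated words made up 88.9% of the window of Hist2h2aa2, 79.8% of that of Hist2h2aa1 and 25.3% of that of Hbs1l. The share was 0% for Alyref, Anapc11, Stk11, Arhgdia, Mrs2 and Ankrd13c. Further CpG-rich peakless starts were those of Eef2, the elongation factor of translation, Psmc5, Atf4, the factor of the stress response, Rrm2, a subunit of ribonucleotide reductase, Topbp1 of the DNA damage checkpoint, the spliceosome protein Snrpe and the mitochondrial chaperone Clpx. Each of these is used broadly in dividing cells. Apart from Psmc5, these further names were chosen after their values had been seen. Another start of Topbp1 lay 1936 bp from a peak.

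CpG-rich peakless starts lay farther from peaks than the others, with a median of 18177 bp against 9649 bp. These medians are over starts, and starts that lie between the same neighbouring peaks are counted separately. Of the 178, 29 had another transcript start with a peak, which leaves 149, and 28 had over 50% of repeated words. In 113 of them no peak overlapped the gene body.

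**Figure D4:**
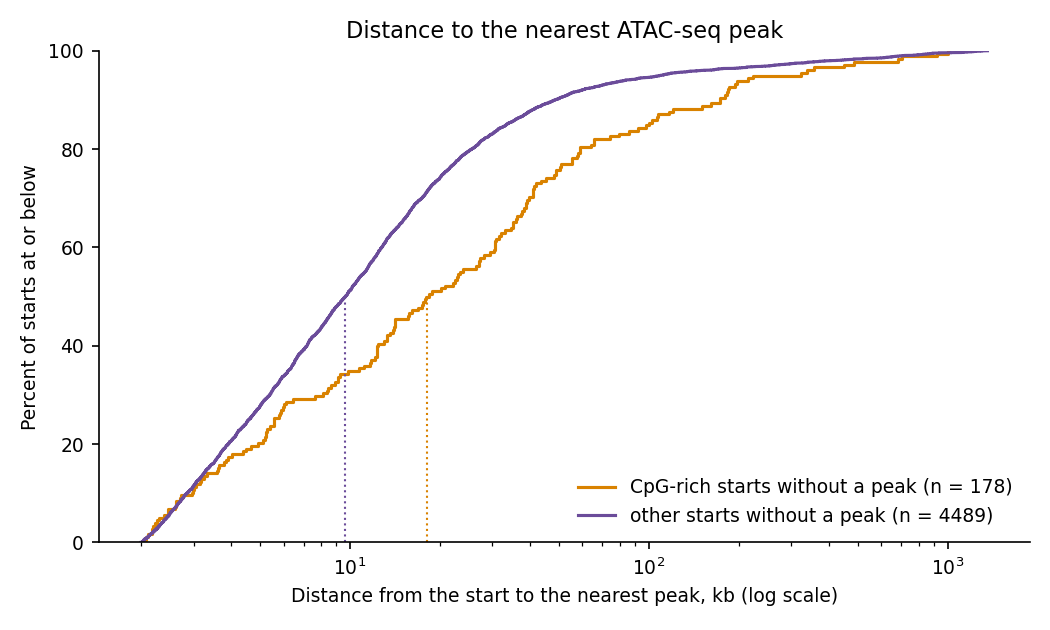
Curves give the percent of starts without a peak whose nearest peak lies at or below the distance on the x axis, in kb on a log scale, for 178 CpG-rich and 4489 other starts, with dotted lines at the medians. The medians are 18177 bp for CpG-rich starts and 9649 bp for the others. Starts that lie between the same neighbouring peaks are counted separately.

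Many of these starts shared a stretch between neighbouring peaks. The 172 CpG-rich starts that lie between peaks fell into 120 such stretches, and 25 stretches held 2 or more. The stretch around a CpG-rich peakless start had a median length of 83.8 kb, against 39.0 kb for other peakless starts. Stretches with many starts enter these medians many times. With each stretch entered a single time, the medians were 55.9 kb for the 120 with a CpG-rich peakless start and 31.6 kb for the 3388 with other peakless starts alone. The names of the peaks carry running numbers up to 370994, of which 116782 are in the list, so the numbers skipped between neighbouring peaks were read as calls that the list does not hold. Per 100 kb of stretch, the median over starts was 4.09 skipped numbers around CpG-rich and 8.82 around other peakless starts, and 5.70 around the 2159 starts that have a peak in their window but lie between peaks. With each stretch entered a single time, it was 6.06 for stretches with a CpG-rich peakless start and 9.90 for those with other peakless starts alone.

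The stretch with the most CpG-rich starts was chr11:120492334-120647257, which is 155 kb long and skips 2 running numbers. It holds 12 peakless starts, of which 10 are CpG-rich: Gcgr, Mcrip1, Ppp1r27, P4hb, Arhgdia, Alyref, Anapc11, Npb, Pcyt2 and Mafg. No start in this stretch had a CpG ratio below that of Sirt7, 0.446, and the window around each start of Gcgr, Arhgdia, Alyref, Pcyt2 and Mafg had 0% of repeated words. Just before it, Mrpl12 and Slc25a10 with ratios of 0.844 and 0.684 had peaks, with fold enrichments of 5.77 and 7.92.

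**Figure D5:**
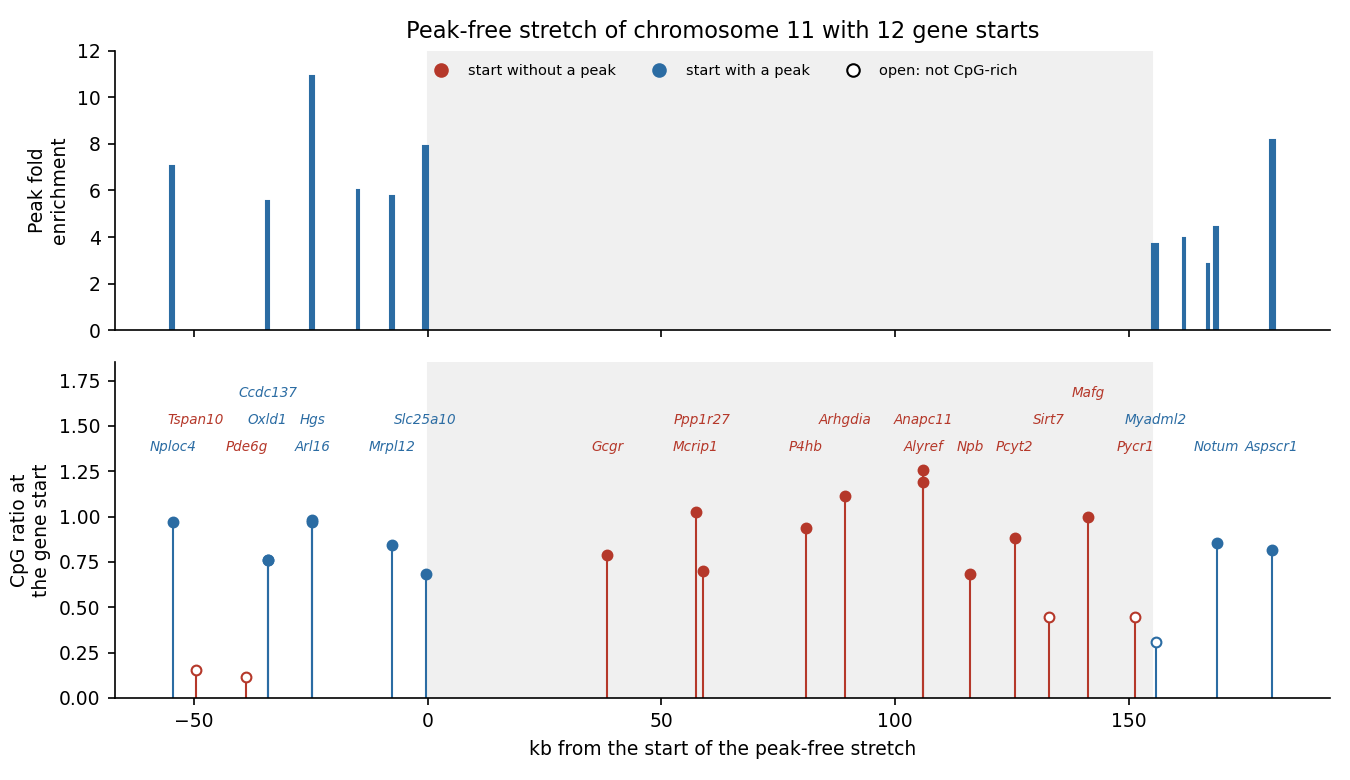
The upper panel gives the peaks by position and fold enrichment and the lower panel the CpG ratio at each gene start, in kb from the beginning of the stretch without peaks on chromosome 11 (grey). Filled points are CpG-rich. The 12 starts inside, 10 of them CpG-rich, have no peak over 155 kb, while CpG-rich starts on both sides have peaks.

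Other such stretches held Hist2h2ac, Hist2h3c2, Hist2h2aa2, Hist2h2aa1 and Hist2h3c1 of the histone cluster on chromosome 3 (132 kb, 5 numbers skipped), Mief1, Atf4 and Rps19bp1 on chromosome 15 (48.8 kb, 2 skipped), Eef2 and Dapk3 on chromosome 10 (65.5 kb, 4 skipped), and Psmc5 and Smarcd2 on chromosome 11 (90.8 kb, 7 skipped). The windows of Hist2h3c2, Hist2h2aa2 and Hist2h3c1 had 88.9% of repeated words, that of Hist2h2aa1 79.8% and that of Hist2h2ac 25.5%. The windows of the other starts just named had 0%. Between the peaks around Hjurp and Trpm8 on chromosome 1 (112 kb) and around Gsc2 and Slc25a1 on chromosome 16 (85.6 kb), no number was skipped at all. The authors removed reads in the ENCODE High Signal Regions before they called peaks. Where these regions lie was not examined here, and the part of this step in the missing peaks was not tested. Stretches of gene models on chromosome 14 were also among them, with 7 CpG-rich starts in 1469 kb, in a run whose median share of repeated words was 100%. All these stretches were picked after their values had been seen.

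Last, the peakless starts were counted inside ECORDs, the gene domains that the study named for coordinated repression by EHMT2. The 24 h and 7 d domains were chosen by the study from RNA-seq of EHMT2-dTAG mESCs with dTAG-13 or DMSO. The 2CLC and mESC domains came from cells sorted by a GFP reporter, in a line derived from EHMT2-dTAG mESCs. Both sorted groups had received DMSO, so degradation of EHMT2 did not enter that comparison. All these domains are thus not independent of the cells used here. Over all starts considered, 24.1% were peakless. Of the starts in domains higher in 2CLCs than in mESCs, 455 of 838 (54.3%) were peakless. In domains higher in mESCs, 7 of 63 (11.1%) were. In the domains that increased after degradation of EHMT2, 102 of 123 starts (82.9%) were peakless for 24 h and 192 of 243 (79.0%) for 7 d. Gene models made up 76 of the 102 and 145 of the 192. The 24 h and 7 d domains overlap each other and the 2CLC domains. The same starts can thus be counted in several of these shares, which are not separate observations. The peakless starts in the 2CLC, 24 h and 7 d domains had a median of 65.0%, 67.8% and 77.8% of repeated words, against 0% in the mESC domains, and the part of repeated sequence in these shares was not tested.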

How the data were processed

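ATAC-seq was performed by the study on 2 clones of EHMT2-dTAG mESCs with DMSO, which GEO lists as 1 group. The authors joined technical replicates and trimmed with BBMap. Alignment to mm10 used STAR 2.7.10, allowing many locations per read and placing ties at random. Duplicates (Picard 2.26.0) and reads inside ENCODE High Signal Regions were removed, ends were shifted for the offset of Tn5, and the authors called peaks with MACS2 2.2.6 on both clones merged. Versions are those of the submitters' processing notes. The deposited fold enrichment is a ratio of pileup to local background, the deposited −log10 p-value and −log10 q-value are those of the summit, and the deposited score, an integer made from them, was not used further. Library totals were not analysed here.

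Gene starts, coding lengths and exons came from GENCODE vM21, an earlier release than that of the study, and sequences from RefSeq's GRCm38 assembly. Words of 50 bases were counted over chromosomes 1 to 19, X and Y on both strands. Peakless starts, family lists and motifs were chosen with earlier results of these data known, and no test was made. Named genes were the 5 farthest from a peak, the ends of the longest runs, the 10 of highest CpG ratio with GC of at least 55%, the nearest and farthest member of each list, the 3 on each side of the limit, and peakless genes of the check lists. A gene just outside the limit is not reported here. Members of the 60 lists were found by name patterns, first match. Protein sequences were not used here. Scripts were tested on simulated data and used Python 3.11.15, NumPy 2.4.6, pandas 2.3.3, SciPy 1.17.1, numba 0.67.0 and matplotlib 3.10.9.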

Additional observations from a re-analysis of the deposited data

How the results depend on the processing

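No paired analysis was possible because 1 peak list stands for the merged clones, and for the same reason no clone could be left out. Of 71 values under other settings, 38 stayed within 1.5 times (counts) or within their 95% interval (medians and shares), 29 of 60 planned ones and 9 of 11 added after the data had been seen. The intervals were calculated over starts as if each were independent, which they are not. They serve only as a yardstick for the size of a shift and measure no spread between replicates. A −log10 q-value of at least 10 moved all 8 results, with 8847 peakless starts (45.7%), a median CpG ratio of 0.283, a median GC of 52.4%, a median distance of 29506 bp, 100 runs, TATAAA at 4.39%, 17.0% of starts in the lists and 1606 CpG-rich peakless starts in place of 178. With a window of 1000 bp the lists held 22.1% and the distance was 7936 bp. With a window of 5000 bp the lists held 25.6%, the ratio was 0.187, GC 48.4%, the distance 14582 bp and the runs 29. With every transcript start without a peak the lists held 26.3%, the ratio was 0.186 and the distance 11664 bp. With Olfr, Vmn1r and Vmn2r genes kept the lists held 18.2%, the ratio was 0.165, GC 46.8%, the distance 10558 bp, the runs 91 and TATAAA 5.53%. With chromosomes X and Y the lists held 20.9%, GC was 48.4% and the distance 11187 bp. Peak summits gave a distance of 9338 bp, a sequence window of 1000 bp a ratio of 0.184 and a GC of 46.8%, TATAAA at 50 to 15 bp a share of 7.59%, runs of 5 or more a count of 168, and starts with under 10% of repeated words, an added setting, a ratio of 0.207. The cause of these shifts was not tested, other than that fewer peaks, other windows or more genes change which starts are counted. Under every setting listed, the median ratio of peakless starts stayed below 0.749, the value of starts with a peak under the reported setting. With a sequence window of 1000 bp, starts with a peak had a median ratio of 0.696. Under the other settings the ratio of starts with a peak is not given here, so the contrast itself was not followed across them. Depth limits all calls, since the smallest peaks rest on 6 fragments.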
